A study of Mus musculus with 44 samples.

Results

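The transcripts of 9 mouse genes of the pluripotency network, Pou5f1, Nanog, Sox2, Esrrb, Tbx3, Sall4, Dppa4, Utf1 and Lin28a, were followed across 44 expression arrays of sorted primordial germ cells (PGCs) and embryonic stem (ES) cells. The members were every probe of the unnormalized intensity table that the platform annotation assigns to one of these symbols, which gave 18 probes for 9 of the 16590 genes named on the array. Pou5f1 (chromosome 17), Sox2 (chromosome 3) and Lin28a (chromosome 4) had 2 probes each. Tbx3 (chromosome 5), Sall4 (chromosome 2) and Dppa4 (chromosome 16) had 3 probes each, and Nanog (chromosome 6), Esrrb (chromosome 12) and Utf1 (chromosome 7) had 1. Probes of a gene are numbered from 1 by mean intensity over all arrays. Of the 18 probes, 17 were kept, which took 2 or more arrays with a detection p below 0.01. The exception, probe 3 of Tbx3, was detected on 1 array.

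The 44 arrays fall into 23 groups: PGCs of female embryos at each of 7 days between E12.5 and E18.5 (written E12.5F to E18.5F), PGCs of male embryos on the same days (E12.5M to E18.5M), PGCs of males at 8, 10, 12, 14, 16, 18 and 20 days after birth (dpp8 to dpp20), PGCs at E11.5 with sex recorded as undefined, and male ES cells of strain OG2 (ESC). The ES cells carry Oct4-GFP on both alleles, a fluorescent reporter of Pou5f1, whereas neither a strain nor the surface marker or reporter used to sort the PGCs is given. The labels call the cells after birth PGCs as well. In 21 groups there were 2 arrays each, which the series counts as biological replicates although its protocol allows technical duplicates, and ESC and dpp14 had 1 array each. P-values therefore measure the spread between these arrays, and the single arrays are assumed to vary like the rest.

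Pou5f1 (OCT4) and SOX2 are transcription factors that bind DNA side by side and, with the homeodomain protein NANOG, hold cells in the pluripotent state. The nuclear receptor ESRRB and the T-box factor TBX3 belong to the naive branch of this network. The zinc-finger protein SALL4, the SAP-domain protein DPPA4, the chromatin-associated UTF1 and the RNA-binding protein LIN28A, which blocks maturation of let-7 microRNAs, accompany it in ES cells. PGCs express many of these genes after specification, and expression of part of the set falls as female germ cells enter meiosis and male germ cells enter mitotic arrest.

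The stretches directly before the transcription starts of the 3 core factors are shown because they carry letters that OCT4, SOX2 and nuclear receptors are known to recognize. They are RefSeq sequences (GRCm38.p6, plus strand, 5′ to 3′, 250 bases each), at chr6:122707239-122707488 for Nanog, chr3:34649745-34649994 for Sox2 and chr17:35505782-35506031 for Pou5f1. Capitals mark an OCT4-SOX2 composite, the octamer core that lies within it, a GC box or a nuclear receptor half-site, each searched on both strands.
Nanog: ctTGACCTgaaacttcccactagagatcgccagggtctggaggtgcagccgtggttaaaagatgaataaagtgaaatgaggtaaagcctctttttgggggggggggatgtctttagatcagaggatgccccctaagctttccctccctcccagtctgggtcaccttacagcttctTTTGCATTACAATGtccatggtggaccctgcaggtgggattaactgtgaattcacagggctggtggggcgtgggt
Sox2: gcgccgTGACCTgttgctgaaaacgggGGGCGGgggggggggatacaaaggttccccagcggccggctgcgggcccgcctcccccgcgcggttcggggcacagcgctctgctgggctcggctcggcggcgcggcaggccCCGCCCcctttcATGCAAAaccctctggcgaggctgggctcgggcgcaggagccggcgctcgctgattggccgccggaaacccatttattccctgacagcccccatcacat
Pou5f1: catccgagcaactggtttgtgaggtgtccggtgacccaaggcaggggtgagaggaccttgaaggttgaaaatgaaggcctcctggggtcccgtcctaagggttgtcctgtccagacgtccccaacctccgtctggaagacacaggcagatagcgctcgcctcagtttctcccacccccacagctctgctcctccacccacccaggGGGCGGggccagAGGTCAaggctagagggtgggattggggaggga

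The composite, searched as CATTGTNATGCAAA, began 75 bases before the Nanog start, on the minus strand. It occurred in 2 of 32851 promoter stretches of this length (0.00609%), which are the stretches of the 2 listed Nanog starts and overlap each other. The octamer core, searched as ATGCAAA and present in 4.12% of all promoters, began 99 bases before the Sox2 start. Pou5f1 held a GC box, searched as GGGCGG and present in 32.7% of all promoters, 45 bases before its start. It also held a nuclear receptor half-site 33 bases before its start, for which the letters searched were AGGTCA and the share of all promoters was 14%. Nanog and Sox2 held this half-site as well, 248 and 244 bases before their starts, on the minus strand. Sox2 further held GC boxes 223 and 111 bases before its start. RefSeq promoters were listed for 6 of the 9 genes. A match is a description of the letters, not of binding.

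Intensities differed between sets of arrays before normalization. The upper-quartile intensity was 79.9 to 170.2 on the 30 embryonic PGC arrays, 323.6 on the ESC array and 295.5 to 605.5 on the 13 arrays after birth. The E16.5F arrays were the dimmest pair (79.9 and 82.4) and had the largest replicate difference (SD of 0.97 on the log2 scale), followed by E11.5 (0.78). Ddx4, the VASA helicase that defines germ cells, was detected on both arrays of every embryonic PGC group except E16.5F and on all arrays after birth, and was not detected in ESC. All levels below are background-corrected, quantile-normalized log2 values. The lowest level of a detected probe differed between arrays, from 4.92 to 7.21 with a median of 5.41, and was highest in E16.5F (7.09 and 7.21). Undetected probes could thus lie well above 5, as Pou5f1 probe 1 at 6.95 on E16.5F replicate 1. Differences are on the same scale with the standard error of the limma fit, and a call needed a Benjamini-Hochberg adjusted p below 0.05 together with a 2-fold or larger change. Levels of different probes are not comparable with each other.

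**Figure D1:**
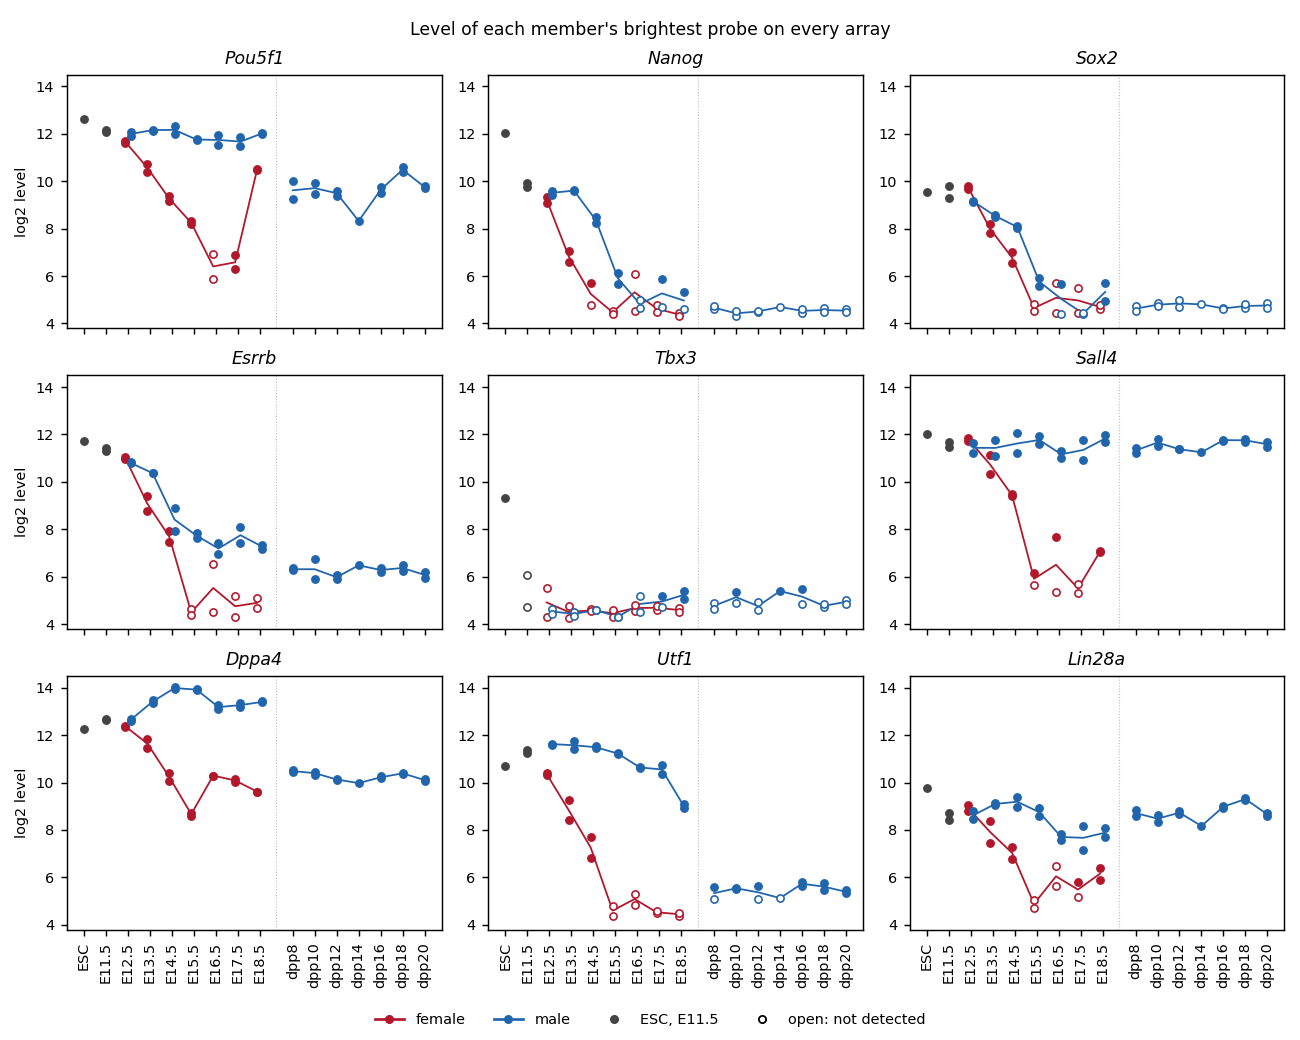
Log2 level (vertical axis) of the brightest probe of each of the 9 genes on every array, by stage (horizontal axis); lines join group means, and open points were not detected. Most members separate between females and males after E12.5, while Tbx3 stands above background in ESC and close to it elsewhere.

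At E11.5, Nanog and Tbx3 were lower than in ES cells, whereas Pou5f1, Esrrb, Sall4 and Utf1 were not called on any probe. Nanog had 9.74 and 9.91 at E11.5, against 12.03 in ESC, a difference of -2.20 ± 0.45 (adjusted p = 3.7e-04). Tbx3 probe 1 was not detected on either E11.5 array and stood at 9.33 in ESC, which makes it at least 7.93-fold lower at E11.5 (adjusted p = 7.9e-08). Tbx3 probe 2, at 8.56 in ESC, was at least 4.66-fold lower (adjusted p = 2.9e-09). Such a bound sets the brighter mean against the lowest level of any detected probe on each dim array, or the probe's own level where that is higher.

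In all, 5 of 9 genes were called lower at E11.5 (7 of 17 probes) and 0 higher, where 14.8% of all 16086 kept probes were called lower. The median difference was -0.50 over the member probes and 0.04 over all kept probes. For 3 of the 5 genes the probes disagreed. Sox2 probe 1 had 9.80 and 9.28 at E11.5, against 9.53 in ESC (0.01 ± 0.44, adjusted p = 0.99), and probe 2 had 5.68 and 6.83, against 10.19 (-3.94 ± 0.36, adjusted p = 4.7e-09). The E11.5 arrays thus spanned the ESC level on one Sox2 probe and lay below it on the other, where E11.5 replicate 1 was undetected. Lin28a probe 1 had 8.43 and 8.70, against 9.79 (-1.22 ± 0.40, adjusted p = 0.018), and probe 2 had 4.95 and 6.93, against 10.38 (-4.43 ± 0.57, adjusted p = 1.1e-06). On Lin28a probe 2 as well E11.5 replicate 1 was undetected, so that the size of this difference rests partly on a value not above background. Without E11.5 replicate 1 the call of Lin28a probe 1 was lost (adjusted p = 0.079). Dppa4 probes 1 and 2 differed from ESC by 0.42 ± 0.16 and 0.07 ± 0.47 and were not called, while probe 3 was at least 2.11-fold lower (adjusted p = 3.4e-05).

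The Pou5f1 levels lay close together, at 12.15 and 12.09 at E11.5 on probe 1, against 12.62 in ESC (-0.50 ± 0.33, adjusted p = 0.26). Utf1 had 11.24 and 11.38, against 10.70 (0.61 ± 0.32, adjusted p = 0.14). Pou5f1 probe 2 had 12.29 and 12.08 at E11.5, against 11.83 in ESC, so that it lay above ESC and probe 1 below it. Sall4 also went both ways without a call. Its levels were 11.46 and 11.68 at E11.5, against 12.00, on probe 1, and 11.50 and 11.28, against 10.34, on probe 2. With 1 ESC array these comparisons rest on its level alone. Scaling each array by its median instead of quantiles moved the median of all probes by -0.92 and left 172 probes called higher and 7700 lower, against 2149 and 2388, and all 9 genes were then called lower at E11.5. All 5 of the 5 tested erythroid markers were higher at E11.5, where their summed level was 2891 and 66884 on the 2 arrays, against 111 in ESC with none of them detected. Of 10 Sertoli markers 1 was higher (summed level 1552 to 1574, against 909), and Sox9 and Amh were detected in neither group. The part of these cells in the differences was not tested.

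No member gene was called in either direction between E12.5 and E11.5 (0 of 17 probes, where 5.81% of all kept probes were called either way). Nanog had 9.32 and 9.10 in E12.5F and 9.41 and 9.60 in E12.5M, against 9.74 and 9.91 at E11.5 (-0.46 ± 0.32, adjusted p = 0.38). Lin28a probe 2 had 7.19 and 7.34 in E12.5F and 6.40 and 7.19 in E12.5M, against 4.95 and 6.93 at E11.5 (1.09 ± 0.40, adjusted p = 0.079). The 2 E11.5 arrays differed by more than either sex pair on that probe, and without E11.5 replicate 2 there were 2 genes called higher and 1 lower at E12.5. Over the 4 arrays of E12.5 together, all 5 tested erythroid markers were called lower than at E11.5. Their summed level was 317 to 349 in E12.5F and 3645 to 3658 in E12.5M, against 2891 and 66884 at E11.5, so that the E12.5M arrays lay between the E11.5 arrays. Their part was not tested.

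In female PGCs all members except Tbx3 fell between E12.5 and E15.5. The count was 8 of 9 genes lower (14 of 17 probes) and 0 higher, where 14.7% of all kept probes were called lower. The median difference was -3.63 over the member probes and -0.0046 over all kept probes. In sorted bulk samples, fewer cells of a type and less RNA per cell cannot be told apart.

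Of the core factors, Pou5f1 kept a detectable level in E15.5F and Nanog and Sox2 did not. Pou5f1 probe 1 had 8.19 and 8.31 in E15.5F, against 11.62 and 11.69 in E12.5F (-3.41 ± 0.27, adjusted p = 1.8e-10). Probe 2 had 8.28 and 7.69, against 11.65 and 11.57 (-3.63 ± 0.25, adjusted p = 1.5e-11). The pairs did not overlap on either probe, and the days between lay in order, with 10.74 and 10.40 on probe 1 at E13.5F and 9.38 and 9.15 at E14.5F. Nanog had 4.54 and 4.40 in E15.5F, both undetected, against 9.32 and 9.10 in E12.5F, at least 8.61-fold lower (adjusted p = 1.2e-10). It was detected on both arrays at E13.5F (7.07 and 6.59) and on 1 of 2 at E14.5F (5.70 and 4.80). Sox2 probe 1 was undetected in E15.5F (4.51 and 4.80), against 9.80 and 9.68 in E12.5F, at least 12.5-fold lower (adjusted p = 2.2e-11).

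Of the naive factors, Esrrb fell and Tbx3 was near background throughout. Esrrb had 4.63 and 4.36 in E15.5F, undetected, against 11.05 and 10.96 in E12.5F, at least 29.9-fold lower (adjusted p = 4.9e-12). It was detected on all 4 arrays of the days between, at 9.40 and 8.76 in E13.5F and 7.91 and 7.46 in E14.5F. Tbx3 probe 1 was detected on none of the 14 female arrays, and probe 2 on 1 of them (5.81, E12.5F replicate 1).

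The falls of Sall4, Utf1, Lin28a and Dppa4 ended at different points relative to background. Sall4 probe 1 had 6.17 and 5.65 in E15.5F, against 11.73 and 11.87 in E12.5F (-5.89 ± 0.43, adjusted p = 4.8e-11), with 1 of the 2 E15.5F arrays detected. Probe 2 of Sall4 was undetected in E15.5F (5.92 and 5.32), against 11.90 and 11.80, at least 53.7-fold lower (adjusted p = 1.0e-11). Utf1 was undetected in E15.5F (4.39 and 4.81), against 10.41 and 10.30, at least 19.1-fold lower (adjusted p = 7.8e-15). The Utf1 arrays had been detected at 9.26 and 8.41 at E13.5F and at 7.69 and 6.84 at E14.5F.

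Lin28a probe 1 was undetected in E15.5F (4.72 and 5.04), against 8.80 and 9.06 in E12.5F, at least 7.09-fold lower (adjusted p = 2.1e-10). Dppa4 probe 1 remained clearly detected in E15.5F at 8.61 and 8.72, against 12.36 and 12.38 in E12.5F (-3.70 ± 0.13, adjusted p = 3.1e-16). Dppa4 probe 1 then had 10.29 and 10.30 in E16.5F, 10.03 and 10.14 in E17.5F and 9.62 and 9.61 in E18.5F. The E18.5F pair differed from E15.5F by 0.95 ± 0.13 (adjusted p = 3.1e-06), under the 2-fold limit.

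Of 7 germ cell markers tested, 1 rose in E15.5F (Tdrd7, 1.11 ± 0.21) and 2 fell, Dppa3 by -5.48 ± 0.21 and Nanos3, undetected in E15.5F, at least 2.19-fold. Their summed level was 8047 to 8767 in E15.5F, against 12724 to 12893 in E12.5F, and Mael was undetected in both. The summed level of 5 erythroid markers was 8148 to 8209 in E15.5F, against 317 to 349 in E12.5F, with Hba-a1 as the 1 marker called (5.60 ± 0.79), and Alas2 undetected in both. Of 6 mesenchymal markers 2 were higher (summed level 356 to 524, against 146 to 168). The part of these cells was not tested.

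In male PGCs the members went different ways over the same days: Nanog, Sox2 and Esrrb fell, Dppa4 rose, and Pou5f1, Sall4, Utf1 and Lin28a were not called. That is 3 of 9 genes lower (4 of 17 probes), where 16.5% of all kept probes were called lower, and 1 gene higher (2 probes), where 17.6% were called higher. Counted by probes, both numbers are near the shares of all kept probes and do not set the members apart. The median difference was -0.19 over the member probes and 2.4e-04 over all kept probes.

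Nanog had 5.66 and 6.15 in E15.5M, both detected, against 9.41 and 9.60 in E12.5M (-3.61 ± 0.37, adjusted p = 8.9e-09). It still stood at 9.58 and 9.63 at E13.5M and at 8.49 and 8.22 at E14.5M, while females were already at 7.07 and 6.59 at E13.5F. Sox2 probe 1 had 5.93 and 5.60 in E15.5M, against 9.17 and 9.11 in E12.5M (-3.38 ± 0.36, adjusted p = 1.8e-08). Esrrb had 7.83 and 7.64, against 10.82 and 10.78 (-3.07 ± 0.42, adjusted p = 1.2e-06), and stayed detected on every male array.

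Pou5f1 probe 1 had 11.73 and 11.78 in E15.5M, against 11.89 and 12.08 in E12.5M (-0.23 ± 0.27, adjusted p = 0.53). Sall4 probe 1 had 11.61 and 11.93, against 11.24 and 11.63 (0.33 ± 0.43, adjusted p = 0.58), with overlapping pairs. Utf1 had 11.19 and 11.26, against 11.60 and 11.64 (-0.40 ± 0.26, adjusted p = 0.22). Lin28a probe 1 had 8.57 and 8.92, against 8.44 and 8.81 (0.12 ± 0.32, adjusted p = 0.80), also with overlap.

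Dppa4 probe 1 had 13.94 and 13.91 in E15.5M, against 12.69 and 12.60 in E12.5M (1.28 ± 0.13, adjusted p = 1.5e-08), and probe 2 had 10.01 and 10.58, against 8.93 and 9.16 (1.24 ± 0.38, adjusted p = 0.0086). The call on probe 2 was lost without E12.5M replicate 1 (adjusted p = 0.060) or E15.5M replicate 2 (adjusted p = 0.11). The highest Dppa4 levels of the series on probe 1 were those of E14.5M, 14.01 and 13.96. Over these days 5 of 10 Sertoli markers were lower in E15.5M (summed level 1288 to 1311, against 3081 to 3314 in E12.5M) and 1 was higher, with Sox9 undetected in both and Amh in E15.5M. Their part was not tested.

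**Figure D2:**
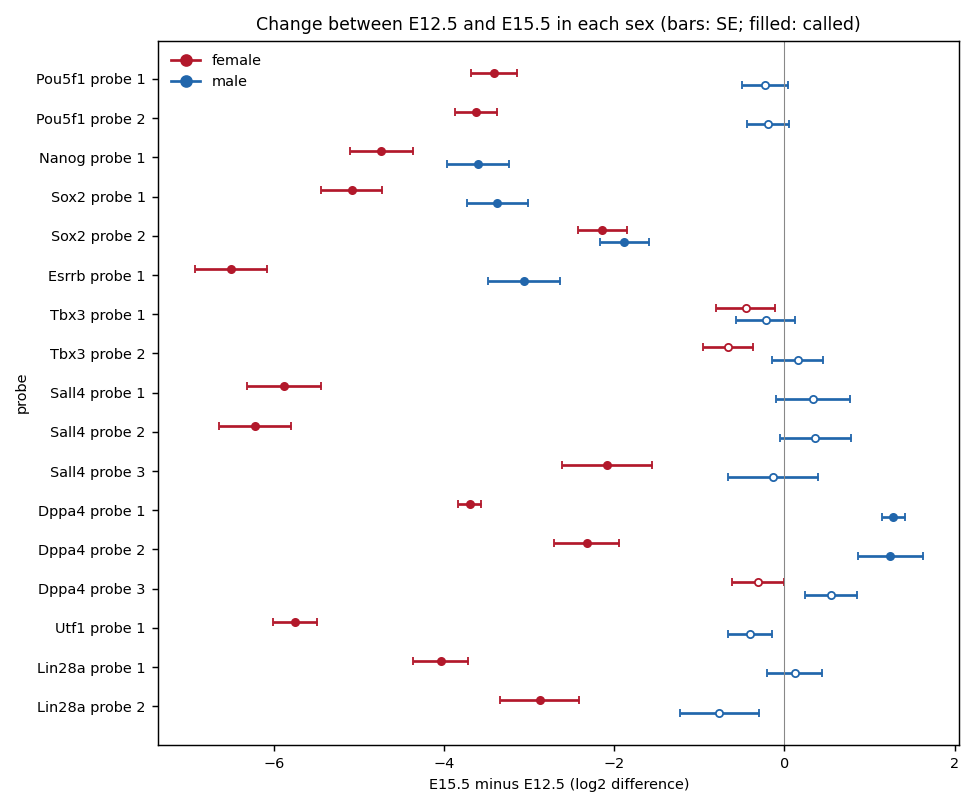
E15.5 minus E12.5 log2 difference (horizontal axis) with its SE for each of the 17 kept probes, females above males; filled points were called. The female points lie left of the male points on every probe, and the Nanog, Sox2 and Esrrb probes were called lower in both sexes.

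The female change between E12.5 and E15.5 was tested against the male change with an interaction term. It was more negative in 7 of 9 genes (12 of 17 probes), where 18.9% of all kept probes were called lower. Dppa4 probe 1 gave -4.98 ± 0.19 (adjusted p = 1.7e-15) and Pou5f1 probe 1 gave -3.18 ± 0.38 (adjusted p = 2.7e-07). Sall4 probes 2 and 1 gave -6.60 ± 0.60 (adjusted p = 2.7e-09) and -6.22 ± 0.61 (adjusted p = 1.2e-08). Utf1 gave -5.36 ± 0.37 (adjusted p = 3.5e-11), Esrrb -3.44 ± 0.60 (adjusted p = 4.2e-05) and Sox2 probe 1 -1.71 ± 0.51 (adjusted p = 0.0083). For Nanog the difference was -1.13 ± 0.52 (adjusted p = 0.084) and was not called. Nanog, Sox2, Esrrb, Utf1, Lin28a and Sall4 probes 2 and 3 were undetected on both E15.5F arrays, so that their interaction values rest on levels not above background and their sizes are not exact. Pou5f1 and Dppa4 probe 1 were detected on all 8 arrays. In the same interaction 6 of 7 germ cell markers were called lower, with a summed level of 8047 to 8767 in E15.5F and 12724 to 12893 in E12.5F, and of 15406 to 15423 in E15.5M and 15120 to 15227 in E12.5M. Of 10 Sertoli markers 5 were called higher and 0 lower, and of 6 mesenchymal markers 3 were higher and 1 lower. The part of these shifts was not tested.

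The female and male curves can be set side by side on each day. At E12.5 females were lower for 2 of 9 genes, where 3.5% of all kept probes were called lower. Utf1 had 10.41 and 10.30 in E12.5F, against 11.60 and 11.64 in E12.5M (-1.27 ± 0.26, adjusted p = 0.0013). Dppa4 probe 3 was undetected in E12.5F, against 5.83 and 6.37 in E12.5M, at least 1.27-fold lower (adjusted p = 0.0054), a call lost without E12.5F replicate 1 (adjusted p = 0.11) or E12.5M replicate 2 (adjusted p = 0.10). On that day 4 of 10 Sertoli markers were lower in females (summed level 1184 to 1244 in E12.5F, against 3081 to 3314 in E12.5M). Amh and Sox9 were undetected in E12.5F, and Sox9 in E12.5M. Their part was not tested.

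At E13.5 females were lower for 6 of 9 genes (9 of 17 probes; 8.94% of all kept probes). The difference was -2.77 ± 0.37 (adjusted p = 1.7e-06) for Nanog, with 7.07 and 6.59 in E13.5F, against 9.58 and 9.63 in E13.5M. Pou5f1 probe 1 had 10.74 and 10.40, against 12.14 and 12.18 (-1.59 ± 0.27, adjusted p = 5.3e-05). Neither pair overlapped. The calls of Esrrb and Lin28a on this day were lost without E13.5F replicate 2 (adjusted p = 0.20 and 0.19), which left 4 genes lower, and that of Esrrb also without E13.5M replicate 1 (adjusted p = 0.086) or replicate 2 (adjusted p = 0.084). Without E13.5F replicate 1, 8 genes were lower.

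The count then was 7 of 9 genes at E14.5 (13 probes; 15.6% of all kept probes), 8 of 9 at E15.5 (14 probes; 20.3%), and 6 of 9 at E16.5 (9 probes; 24.1%), E17.5 (9 probes; 20.9%) and E18.5 (9 probes; 20.4%). No member was called higher in females on any of the 7 days. Sall4, which had not differed at E13.5 (-0.70 ± 0.43 on probe 1, adjusted p = 0.26), was lower in females by -2.19 ± 0.43 at E14.5 and by -5.86 ± 0.43 at E15.5. Utf1 differed by -6.62 ± 0.26 at E15.5, where it was at least 34.8-fold lower in females (adjusted p = 3.1e-16), and Dppa4 probe 1 by -5.26 ± 0.13 (adjusted p = 1.3e-19). Nanog and Sox2 probe 1 were close to background in both sexes by E15.5 and differed by -1.43 ± 0.37 and -1.11 ± 0.36, calls that were lost under cyclic loess normalization (adjusted p = 0.53 and 0.68) and under median scaling (adjusted p = 0.25 and 0.24). The call of Sox2 was also lost without E15.5F replicate 1 (adjusted p = 0.080) or E15.5M replicate 1 (adjusted p = 0.088), and that of Esrrb at E16.5 without E16.5F replicate 2 (adjusted p = 0.16). At E16.5 cyclic loess ended the calls of Esrrb (-0.23, adjusted p = 0.55) and Lin28a probe 1 (-0.40, adjusted p = 0.17). Pou5f1 probe 1, Esrrb, Utf1, Lin28a probe 1 and Sall4 probe 2 were undetected on both E16.5F arrays. The sizes of their E16.5 differences are therefore not exact.

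Markers moved on these days too. Of 7 germ cell markers, 4 were lower in females at E14.5 (summed level 10517 to 11257 in E14.5F, against 18513 to 21228 in E14.5M) and 5 at E15.5 (8047 to 8767 in E15.5F, against 15406 to 15423 in E15.5M), with 0 higher on either day and Mael and Nanos3 undetected in both female groups. Such a sum follows its brightest genes. Dppa3 had 10.14 and 10.16 in E14.5F, against 13.13 and 13.18 in E14.5M, and 6.79 and 6.88 in E15.5F, against 10.88 and 10.91 in E15.5M. Dazl went the other way, with 12.03 and 12.38, against 11.21 and 11.86, at E14.5, and 11.77 and 11.90, against 10.89 and 11.09, at E15.5. Of 10 Sertoli markers, 6 were lower in females at E16.5 (562 to 763 in E16.5F, against 2848 to 3309 in E16.5M), 5 at E17.5 (375 to 393 in E17.5F, against 1893 to 2363 in E17.5M) and 7 at E18.5 (271 to 311 in E18.5F, against 4656 to 4700 in E18.5M). Amh and Sox9 were undetected in females on these 3 days. The 3 tested genes of the granulosa list were Fst, Irx3 and Wnt4. All 3 were lower in females at E17.5 (124 to 147 in E17.5F, against 409 to 544 in E17.5M). They were also lower at E18.5 (103 to 105 in E18.5F, against 865 to 1004 in E18.5M). Their sum was highest in E18.5M among all groups, so that the name of the list does not identify granulosa cells in these arrays. At E18.5 the mesenchymal sum was 224 to 231 in females, against 1090 to 1160 in males. The endothelial sum was 179 to 209, against 702 to 830, and the macrophage sum 43.6 to 51.9, against 249 to 262. The steroidogenic sums overlapped (53.9 to 64.6 and 44.2 to 72.6). The part of these cells in the sex differences was not tested.

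Over the 7 days, the F-test of sex by day passed for 8 of 9 genes, all but Tbx3, where 72.7% of all kept probes passed. The share among the members is thus near that of the array as a whole.

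**Figure D3:**
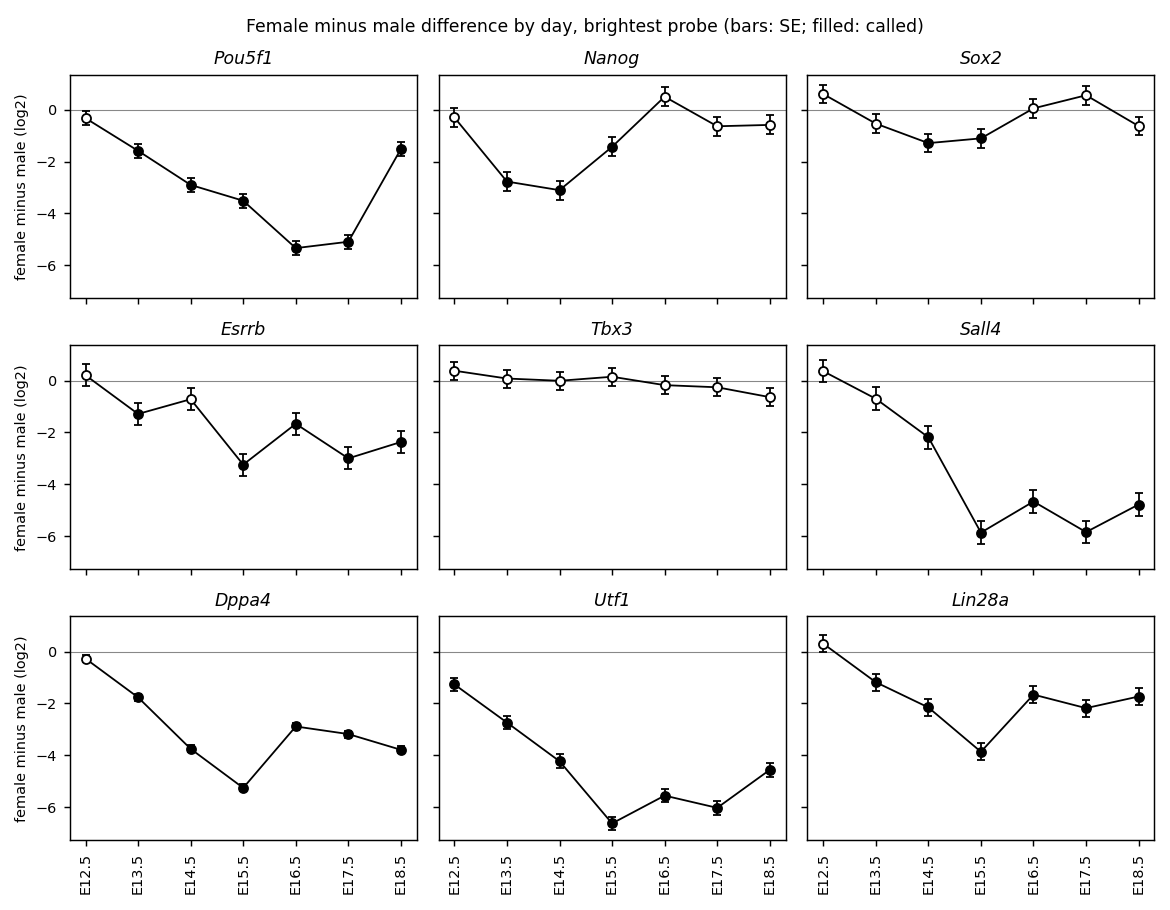
Female minus male log2 difference (vertical axis) with its SE on each day (horizontal axis) for the brightest probe of each gene; filled points were called. Pou5f1 reached its largest difference at E16.5 and E17.5 and was near -1.52 at E18.5, whereas Nanog's largest values lay at E13.5 and E14.5. This Pou5f1 probe was undetected on both E16.5F arrays, so that the size of its E16.5 difference is not exact.

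Between E15.5 and E18.5 females regained Pou5f1 transcript. Probe 1 had 10.48 and 10.53 in E18.5F, against 8.19 and 8.31 in E15.5F (2.26 ± 0.27, adjusted p = 2.8e-07), and probe 2 had 11.09 and 11.01, against 8.28 and 7.69 (3.07 ± 0.25, adjusted p = 4.6e-10). The lowest Pou5f1 levels lay between these days, at 6.95 and 5.86 in E16.5F, both undetected on probe 1, and at 6.29 and 6.87 in E17.5F. The E18.5F arrays thus stood above every female array from E14.5 to E17.5 on both probes.

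In all, 3 of 9 genes were called higher in E18.5F (4 of 17 probes), where 12% of all kept probes were called higher, and 0 lower. The other two were near the limit: Sall4 probe 1 had 7.06 and 7.04 in E18.5F, against 6.17 and 5.65 in E15.5F (1.14 ± 0.43, adjusted p = 0.042). Lin28a probe 1 had 6.41 and 5.90, against 4.72 and 5.04, both undetected, at least 1.04-fold higher (adjusted p = 0.0030). Under cyclic loess both calls were lost and the differences turned to -0.058 for Sall4 and -0.20 for Lin28a, and both calls were lost without E18.5F replicate 1 (adjusted p = 0.13 and 0.058), which left Pou5f1. That of Sall4 was also lost without E15.5F replicate 2 (adjusted p = 0.23) or E18.5F replicate 2 (adjusted p = 0.12). Nanog, Sox2, Esrrb and Utf1 were undetected on both E18.5F arrays. Of 7 germ cell markers 2 were higher in E18.5F (summed level 19863 to 20283, against 8047 to 8767 in E15.5F), and of 10 Sertoli markers 0 were higher and 2 lower (summed level 271 to 311, against 675 to 796) with none of the 10 detected in E18.5F. Within the germ cell sum, Dppa3 had 13.49 and 13.53 in E18.5F, against 6.79 and 6.88 in E15.5F. Dazl had 11.09 and 11.17, against 11.77 and 11.90. All 3 genes of the granulosa list were lower (summed level 103 to 105, against 299 to 455). The part of these cells was not tested.

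In males over the same days 2 of 9 genes were lower in E18.5M (3 of 17 probes), where 7.82% of all kept probes were called lower. Utf1 had 9.11 and 8.91 in E18.5M, against 11.19 and 11.26 in E15.5M (-2.21 ± 0.26, adjusted p = 5.1e-07), with 10.65 and 10.63 at E16.5M and 10.72 and 10.38 at E17.5M. The step of Utf1 thus lay mainly after E17.5. Dppa4 fell on probe 2 (-1.06 ± 0.38, adjusted p = 0.038) and probe 3 (-1.78 ± 0.30, adjusted p = 7.8e-05), calls of which the first was lost without E15.5M replicate 2 (adjusted p = 0.28) or E18.5M replicate 1 (adjusted p = 0.27). Dppa4 probe 1 had 13.38 and 13.43, against 13.94 and 13.91 (-0.52 ± 0.13, adjusted p = 0.0047), under the 2-fold limit. Pou5f1 probe 1 had 11.99 and 12.05 in E18.5M, against 11.73 and 11.78 in E15.5M (0.26 ± 0.27, adjusted p = 0.53). In E18.5M 7 of 10 Sertoli markers were higher (summed level 4656 to 4700, against 1288 to 1311 in E15.5M). Summed levels were also higher for the 3 genes of the granulosa list (865 to 1004, against 156 to 161) and for mesenchymal markers (1090 to 1160, against 449 to 466). The same held for endothelial (702 to 830, against 277 to 299) and macrophage markers (249 to 262, against 61.7 to 69.5). They were lower for erythroid (2139 to 2216, against 2393 to 2669) and steroidogenic markers (44.2 to 72.6, against 89.4 to 125). The part of these cells in the falls of the members was not tested.

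On the quantile-normalized values, the male cells after birth held less Pou5f1, Dppa4, Esrrb and Utf1 than late fetal males, more Lin28a on probe 2 and less Sall4 on probe 2. Of the genes lower after birth, only Dppa4 and Utf1 kept a call under median scaling, as given below. Utf1 was detected on 10 of the 13 arrays, and Nanog and Sox2 on none. At dpp8 and dpp10 together, 5 of 9 genes were lower than at E17.5M and E18.5M together (7 of 17 probes), where 17.4% of all kept probes were called lower, and 1 was higher, where 18.6% were called higher. The median difference was -0.57 over the member probes and 0.05 over all kept probes.

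Pou5f1 probe 1 had 9.24, 9.99, 9.48 and 9.94 at dpp8 and dpp10, against 11.47, 11.87, 11.99 and 12.05 at E17.5M and E18.5M (-2.18 ± 0.19, adjusted p = 2.7e-10). Dppa4 probe 1 had 10.43, 10.53, 10.46 and 10.34, against 13.19, 13.35, 13.38 and 13.43 (-2.90 ± 0.09, adjusted p = 9.1e-18). Utf1 had 5.09, 5.58, 5.56 and 5.52, against 10.72, 10.38, 9.11 and 8.91 (-4.34 ± 0.18, adjusted p = 4.0e-16). None of these sets of 4 arrays overlapped.

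Esrrb had 6.28, 6.35, 6.74 and 5.89 at dpp8 and dpp10, against 8.08, 7.42, 7.35 and 7.18 at E17.5M and E18.5M (-1.19 ± 0.30, adjusted p = 0.0012). Sall4 probe 1 had 11.23, 11.42, 11.51 and 11.81, against 10.94, 11.75, 11.69 and 11.97 (-0.10 ± 0.31, adjusted p = 0.80), with overlap. Sall4 probe 2 had 9.10, 9.50, 8.86 and 10.44, against 10.21, 11.17, 11.40 and 11.45 (-1.58 ± 0.30, adjusted p = 5.2e-05). On probe 2 the sets overlapped as well, through dpp10 replicate 2. Without that array Esrrb differed by -0.98 (adjusted p = 0.013), under the 2-fold limit, which left 4 genes lower.

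Lin28a probe 2 had 7.87, 8.70, 8.40 and 8.73 at dpp8 and dpp10, against 5.28, 5.75, 5.26 and 5.46 at E17.5M and E18.5M (2.99 ± 0.33, adjusted p = 1.7e-08). On Lin28a probe 1 the levels were 8.60, 8.83, 8.32 and 8.63, against 7.16, 8.18, 7.69 and 8.09 (0.82 ± 0.23, adjusted p = 0.0031), under the 2-fold limit. On both probes the 4 arrays after birth lay above the 4 before birth.

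Since the arrays after birth were brighter, the scaling bears on these values. Median scaling moved the median of all probes by 1.01 and called 8075 probes higher and 1210 lower, against 2987 and 2795. It left 2 genes lower among the members, Dppa4 and Utf1, and 2 higher. Under median scaling Pou5f1 probe 1 differed by -0.26 (adjusted p = 0.31) and probe 2 by -0.87 (adjusted p = 0.0015), under the 2-fold limit. Dppa4 probe 2 differed by -0.96, also under that limit, and the differences of Esrrb and of Sall4 probe 2 turned to 0.36 and 0.45. Of 10 Sertoli markers 2 were higher and 1 lower after birth, with summed levels of 1918 to 5813 at dpp8 and 3811 to 9385 at dpp10, against 1893 to 2363 at E17.5M and 4656 to 4700 at E18.5M. All 3 genes of the granulosa list were lower after birth (119 to 120 at dpp8 and 98.8 to 121 at dpp10, against 409 to 544 at E17.5M and 865 to 1004 at E18.5M), with Wnt4 undetected after birth. Of 5 endothelial markers 4 were lower (136 to 137 at dpp8 and 136 to 150 at dpp10, against 507 at E17.5M and 702 to 830 at E18.5M), with Pecam1 undetected after birth and Kdr both before and after it. Of 5 erythroid markers 2 were lower (315 to 525 at dpp8 and 303 to 529 at dpp10, against 3980 to 8179 at E17.5M and 2139 to 2216 at E18.5M). The part of these cells was not tested.

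No member was called between dpp18 and dpp20 together and dpp8 and dpp10 together (0 of 17 probes, where 1.38% of all kept probes were called either way). Pou5f1 probe 2 had 10.23, 10.20, 9.27 and 9.40 at dpp18 and dpp20, against 8.76, 9.54, 9.01 and 9.32 at dpp8 and dpp10 (0.62 ± 0.18, adjusted p = 0.063). The 2 dpp18 arrays lay above all others after birth on both Pou5f1 probes, and the single dpp14 array (8.32 on probe 1, 8.00 on probe 2) lay below them. Nanog and both Sox2 probes were detected on none of the 13 arrays after birth.

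**Figure D4:**
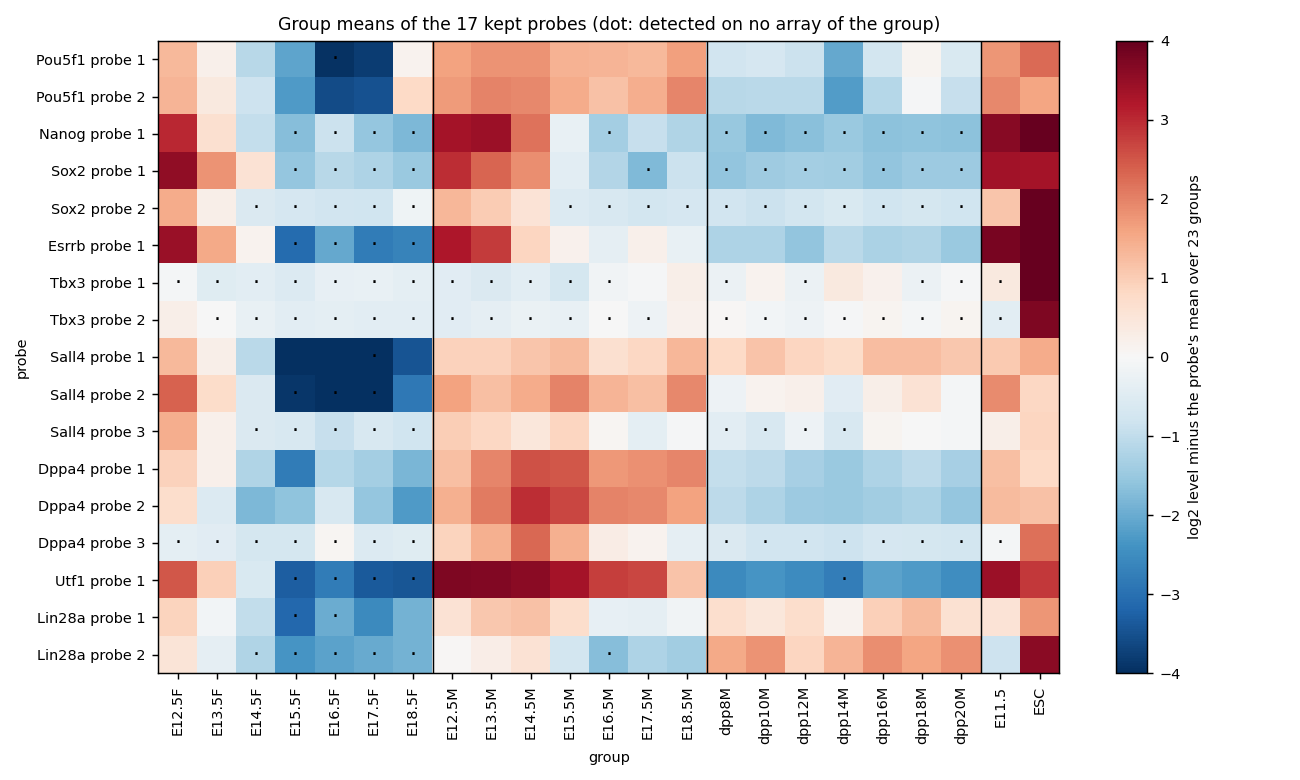
Group mean of each of the 17 kept probes (rows) minus that probe's mean over the 23 groups, on the log2 scale (colour, cut at -4 and 4), for females, males, males after birth, E11.5 and ESC (columns); a dot marks groups in which no array detected the probe. Nanog and Sox2 probe 1 lie below their means in both sexes by E15.5, whereas Sall4, Dppa4 and Utf1 lie below them at E15.5 in females and above them in males.

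For several members the differences varied between probes. Between E11.5 and ESC the range over the probes of a gene was 3.95 for Sox2, 3.21 for Lin28a and 2.68 for Dppa4 on the log2 scale, against a median range of 0.89 over 2924 genes with several kept probes, of which 14.5% exceeded 2 and 3.56% exceeded 3. On the low side of that comparison Sox2 probe 2 and Lin28a probe 2 were detected on 1 of 2 E11.5 arrays and Dppa4 probe 3 on none. Between the male arrays after birth and before birth the range was 2.17 for Lin28a, against a median of 0.67, with both probes detected on all 8 arrays. For Dppa4 it was 2.35, but probes 1 and 2 differed by -2.90 and -2.92, and the range came from probe 3, which was detected on 2 of 4 arrays before birth and 0 of 4 after it. The files used here hold no probe positions or sequences, so the part of transcript variants was not tested. When 1 probe a gene was used, 3 members were lower at E11.5 than in ESC, since Sox2 and Dppa4 were then read by probes that were not called.

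**Figure D5:**
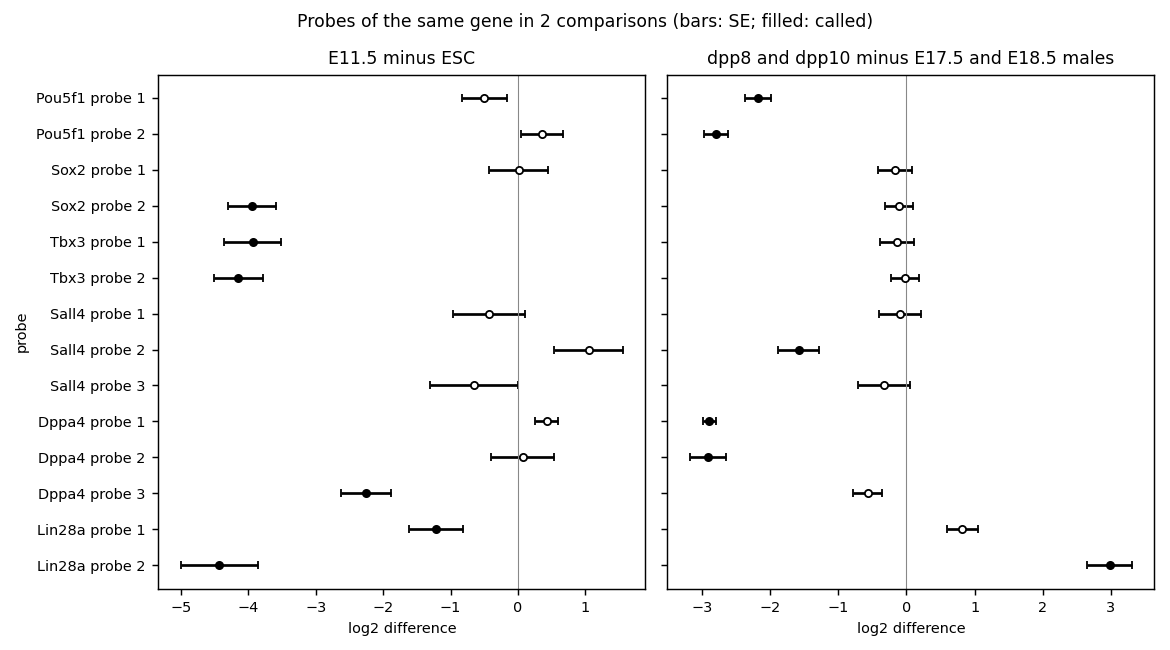
Log2 difference (horizontal axis) with its SE for each probe of the 6 genes with several kept probes, at E11.5 against ESC and after birth against late fetal males; filled points were called. The pairs for Sox2 and Lin28a lie apart in the left panel, and those for Sall4 and Lin28a in the right panel, where probe 3 of Dppa4 is near background.

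Other regulators of naive pluripotency were read by the brightest kept probe of each gene. Of 9 tested, 7 were lower and 1 higher in E15.5F against E12.5F, where 14.7% of all kept probes were called lower. In E15.5M against E12.5M 7 were lower and 2 higher, where 16.5% were called lower and 17.6% higher. Tcl1, a coactivator of AKT, was undetected in E15.5F and at least 13.7-fold lower than in E12.5F, and differed by -3.07 ± 0.28 in males. The nuclear receptor gene Nr5a2 was undetected in E15.5F, at least 4.40-fold lower, and differed by -2.97 ± 0.29 in males, with 1 of 2 E15.5M arrays detected. The Kruppel-like factor gene Klf5 differed by -2.43 ± 0.27 in females and -3.21 ± 0.27 in males. In E18.5F Tcl1 was at least 26.3-fold higher than in E15.5F (adjusted p = 1.9e-14), and Klf5 was lower (-2.70 ± 0.27, adjusted p = 1.4e-08), with 1 of 2 E18.5F arrays detected.

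Of 13 further pluripotency-associated genes, 8 were lower and 0 higher in either sex between E12.5 and E15.5, beside the same shares of all kept probes called lower, 14.7% in females and 16.5% in males. Gdf3, a TGF-beta ligand, was undetected in E15.5F, at least 7.60-fold lower, and differed by -3.75 ± 0.47 in E15.5M. L1td1, an RNA-binding protein, was undetected in E15.5F, at least 8.81-fold lower, and differed by -4.49 ± 0.53 in E15.5M, with 1 of 2 arrays detected. Dppa3 (Stella) differed by -5.48 ± 0.21 in E15.5F and by 6.68 ± 0.21 in E18.5F against E15.5F. Of 5 tested genes of the LIN28 and let-7 pathway, 2 were lower in E15.5F (14.7% of all kept probes), the mRNA-binding protein gene Igf2bp1 (-2.72 ± 0.50) and Arid3a (-1.80 ± 0.38, 1 of 2 E15.5F arrays detected), and 1 in E15.5M (16.5%), Igf2bp3 (-1.39 ± 0.23). After birth 2 of the 5 were higher than in late fetal males (18.6% of all kept probes), among them Dicer1, the enzyme that cuts let-7 precursors (1.38 ± 0.10), and 1 was lower (17.4%).

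Among 7 tested paralogs of the members, 2 were lower in E15.5F (14.7% of all kept probes), Sall1, undetected there and at least 1.35-fold lower, and Sox15, undetected there and detected on 1 of 2 E12.5F arrays. In E15.5M 1 paralog was lower (16.5%), Sox15, at least 3.49-fold. Of 8 primed pluripotency and lineage genes, 1 was higher and 1 lower in E15.5F, and 2 were higher (17.6%) and 1 lower (16.5%) in E15.5M, where Otx2 was undetected and at least 14.4-fold lower. Of 13 spermatogonial stem and progenitor genes, 6 were higher and 0 lower after birth, where 18.6% of all kept probes were called higher and 17.4% lower. They included Neurog3 (3.33 ± 0.26, detected on 3 of 4 late fetal arrays) and Nanos3 (2.82 ± 0.21, detected on 1 of 4).

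Across the 23 group means, the members fell into patterns that describe these arrays and share their libraries and depth. Nanog was most like Sox2 (Pearson r = 0.95) and Esrrb (r = 0.93), Sall4 like Lin28a (r = 0.93) and Dppa4 like Utf1 (r = 0.94), on the brightest probes. Pou5f1 had r = 0.84 with Utf1 and r = 0.62 with Nanog. Over all other genes, the 5 most like Nanog were Gdf3 (r = 0.97), Mup6 (0.95), Sox2 (0.95), Nodal (0.94) and Zscan10 (0.94). The 5 most like Pou5f1 were Tuba1a (0.91), Klf6 (0.91), Elovl6 (0.90), Myadm (0.90) and Tbrg1 (0.89). Sall4 was most like Pald1 (0.95), Lin28a, Aldh4a1 (0.93), Gtpbp4 (0.92) and Aldh2 (0.92), and Lin28a like Smpdl3b (0.96), Sall4, Fiz1 (0.92), Sri (0.91) and Naca (0.91).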

How the data were processed

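Total RNA of each sample was amplified, labelled and hybridized to MouseRef-8 v2 beadchips. The deposited table holds, per the file headers, 1 intensity and 1 detection p-value per probe and array, without normalization. A second deposited table holds the authors' log2 values, whose normalization step is not given in the sources used here. Per the submitters' processing notes, BeadStudio 3.2, RMA and lumi were used, with no role stated. In each array these log2 values kept the order of the intensities (Spearman 1), and the arrays' medians were equal. The largest gap between the sorted values of the arrays was 0.0013, so that the arrays shared 1 distribution, as after quantile normalization. As an alternative, the authors' values therefore do not vary that step.

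Of 25697 probes, 23978 have 1 symbol in the platform annotation, none has several and 1719 have none. Symbols were updated by Entrez gene (23962 probes) or accession (9), and 7 could not be matched. The members and gene lists were chosen with earlier results of these data known. Intensities were background-corrected by normexp, with the background estimated from the detection p-values, then quantile-normalized and logged with neqc (offset 16) in limma 3.58.1 (R 4.3.3). The 16086 probes with a detection p below 0.01 on 2 or more arrays were kept. A fit with 23 group means over all 44 arrays (21 residual degrees of freedom) was tested two-sided in 16 comparisons with Benjamini-Hochberg adjustment over all kept probes within each. The fit was tested on simulated data.

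Named were every member, the 5 genes most alike in group means to Pou5f1, Nanog, Sall4 and Lin28a, and up to 4 called genes of a list with the largest change. Alternatives were the background correction, offset, normalization, the authors' values, the filter, 1 probe a gene, array weights, the fold limit, a replicate block and leaving out arrays. No column was left without a sample. The labels give 12 h and the series text 14 h of in-vitro transcription. The number of arrays limits the precision.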

Additional observations from a re-analysis of the deposited data

Results flagged for a closer look

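The change between E12.5 and E15.5 differed between females and males for 12 probes of 7 genes by the interaction term (female change minus male change, log2 scale, limma with Benjamini-Hochberg adjustment over all kept probes). The values were -3.18 and -3.44 for the Pou5f1 probes, -1.71 for Sox2 probe 1 and -3.44 for Esrrb. For the Sall4 probes they were -6.22, -6.60 and -1.95, and for Dppa4 probes 1 and 2 they were -4.98 and -3.57. Utf1 gave -5.36, and the Lin28a probes gave -4.17 and -2.11. Esrrb, Utf1, Sox2 probe 1, Sall4 probes 2 and 3 and both Lin28a probes were undetected on both E15.5F arrays, so that their values rest on levels not above background and are not exact. All 12 are more negative in females, and in 18.9% of all kept probes the difference was called in that direction. The call of Sall4 probe 3 was lost without any 1 of 6 of the 8 arrays it uses (adjusted p between 0.061 and 0.14), with the authors' values (0.060), without the filter (0.058), under cyclic loess (0.093) and under median scaling (0.11). That of Lin28a probe 2 was lost without E12.5M replicate 1 (0.067) or E15.5M replicate 2 (0.14) and under cyclic loess (0.17), and fell under the 2-fold limit with no background correction (-0.98). Under cyclic loess Sox2 probe 1 differed by -0.80 (0.031), also under that limit.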

How the results depend on the processing

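Over 119 called member values and 55 alternative settings, 42 of which left out 1 array, 2024 values were compared: 1909 kept direction and call, 111 lost the call and 4 reversed. The reversed ones were Lin28a probe 1 (-0.20) and Sall4 probe 1 (-0.058) in E18.5F against E15.5F under cyclic loess, and Esrrb (0.36) and Sall4 probe 2 (0.45) after birth against late fetal males under median scaling. In E12.5F against E12.5M, 1 gene was lower instead of 2 without background correction, with an offset of 50, under cyclic loess, under median scaling and with 1 probe a gene. In E18.5F against E15.5F, 1 gene was higher instead of 3 in the first 3 of these. In E18.5M against E15.5M, 1 gene was lower instead of 2 without background correction, with an offset of 50, under median scaling and with 1 probe a gene, and 1 instead of 0 was higher with the authors' values or no fold limit. At E11.5 against ESC, median scaling gave 9 genes lower instead of 5, 1 probe a gene gave 3, and no fold limit gave 1 higher instead of 0. After birth against late fetal males, median scaling gave 2 higher and 2 lower instead of 1 and 5, and 1 probe a gene gave 0 higher. Leaving out 1 array gave 0 to 2 genes higher and 0 to 1 lower at E12.5 against E11.5, 1 to 2 lower and 0 to 1 higher at E12.5 between the sexes, 0 to 1 higher in females at E16.5 and at E17.5, and 1 to 3 higher and 0 to 1 lower in E18.5F against E15.5F. The cause was not tested. Without background correction fewer of all probes were called in each of the 16 comparisons (2267 instead of 4527 in E15.5F against E12.5F, 2910 instead of 5482 in E15.5M against E12.5M, 2351 instead of 4537 at E11.5 against ESC). Median scaling also shifted the median of all probes and the split of calls: -0.11 in E15.5F against E12.5F (462 higher and 2607 lower, instead of 2155 and 2372), -0.13 in the interaction (576 and 2520, instead of 2817 and 3044), -0.33 in E16.5F against E16.5M (188 and 4454, instead of 3041 and 3879), 0.12 in E18.5F against E15.5F (2778 and 279, instead of 1923 and 1760) and 0.17 in E12.5 against E11.5 (415 and 14, instead of 545 and 390). The split under median scaling also moved in E15.5F against E15.5M (1012 and 2752, instead of 3023 and 3260), where the median was -0.085 instead of -0.038. It moved as well in E18.5M against E15.5M (976 and 319, instead of 1473 and 1258), where the median was 0.038 instead of -0.0076. Cyclic loess gave a shift of -0.14 after birth against late fetal males (1593 and 2997, instead of 2987 and 2795). Under array weights, detection on at least 4 arrays, and leaving out both E16.5F or both E11.5 arrays, chosen after seeing the data, every called member value still covered kept its call. Over all probes, array weights gave 236 calls instead of 935 in E12.5 against E11.5, and 5892 instead of 6920 in E16.5F against E16.5M. With replicate number as a block, all 119 called values kept their call. Over 210 pairs of groups the correlation of same-numbered deviations was -0.15 to 0.32 with a median of 0.014, and 21 exceeded 0.1. Replicate numbers thus showed no pairing common to all groups, which cannot exclude pairing between some of them. Precision is limited by 2 arrays a group and, for probes near background, by the signal above it.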
